A study of Mus musculus with 31 samples.

Results

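A set of 10 T cell genes, which serve the antigen receptor or the survival, homing and identity of these cells (Cd3d, Cd3e, Cd3g, Cd4, Cd8a, Cd8b1, Lck, Il7r, Ccr7 and Tcf7), was followed in whole mouse lung after an injection of oleic acid or of saline. They were found by symbol, as the gene name of a probe or the current symbol of its accession, and all 10 were measured among 29394 features tested, of which 16511 carried a gene symbol. Each array held RNA of 1 lung from a female C57BL/6 mouse aged 6 weeks, with no genetic change named in the labels. Under xylazine and ketamine the mice received either 200 µl of saline (13 mice) or oleic acid at 1.2 µl per g of body weight (18 mice) through a tail vein. Lungs were taken at 1, 1.5, 3, 4, 18 or 24 h, and every group, controls included, had the anaesthesia and the injection. Of 31 arrays 29 were used, 13 with saline and 16 with oleic acid, which left 3 mice in each 1 h group and in the oleic acid groups at 4, 18 and 24 h, and 2 in every other group. The p-values measure the spread between these mice.

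T cells recognise antigen through a receptor whose signal is carried by the CD3 chains. The coreceptors CD4 and CD8 bring the kinase Lck to that receptor, on helper and on cytotoxic cells respectively. The lung holds resident T cells and others that pass through its vessels, and oleic acid given into a vein is used to model acute respiratory distress because it injures the lung's endothelium and lets fluid into the airspaces. In RNA from a whole lung, fewer T cells and less RNA per T cell cannot be told apart.

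Levels are given as log2 of the array signal minus the 75th percentile of that array, so that 1 unit is a doubling, and each gene is set only against itself. The 75th percentile lay between 245 and 537 on the 29 arrays, a 2.19-fold range, and the slope of the added control RNAs lay between 0.94 and 1.06. The arrays left out were both of oleic acid, replicate 3 of 1.5 h and replicate 2 of 3 h, and their slopes lay at 1.66 and 0.75. The tissue label was borne out by its own markers: all 12 lung markers were measured, and Sftpc, the surfactant protein of alveolar type II cells, ranged from 9.29 to 10.33. Of 13 thymus markers 6 were kept. Among genes of developing lymphocytes, Rag1, a recombinase, was above background on 0 of 29 arrays and Dntt, which adds bases to receptor genes, on 28. The arrays came from 4 slides: slide 1 held the 1 h arrays and 1 saline array of 1.5 h, and slide 2 the rest of 1.5 h with all but 1 of the 3 h arrays used. Slide 3 held that last 3 h array, the 4 h arrays and saline 18 h, and slide 4 held oleic acid 18 h with the 24 h arrays, so treatment and slide cannot be told apart at 18 h. Dbp, a gene of the circadian clock, stood at 1.13 and 1.73 on saline 1 h replicates 1 and 2 but at 5.91 on replicate 3 and between 5.67 and 6.00 on the oleic acid 1 h arrays. Oleic acid 24 h replicate 3, at 5.55, also stood apart from the 2.26 and 2.50 of its group. Some of the results that use these 3 arrays are also given without them, a choice made after seeing the data. These are the medians at 1 and 24 h, Il7r and Cd8a at 1 h, and the change of Ccr7 over time after saline.

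The 10 genes were read by 13 probes of 60 bases, and Cd4, Cd8a and Tcf7 had 2 probes each. The brighter probe of a gene was used. All of the probes used were above background on 29 arrays except that of Cd3d, with 28, because its spot on saline 18 h replicate 1 was marked as an outlier. The probe of Cd3d decides how far that group can be read and is therefore shown, with the second probes of Cd4 and Cd8a, which measured these genes elsewhere and were above background on 22 and 23 of 29 arrays. They lie, in mm9, at chr9:44794171-44794402 on the plus strand, chr6:124817706-124817765 on the minus strand and chr6:71323885-71323944 on the plus strand. The 60 bases of the Cd3d probe spread over 232 bases of the genome, so this probe crosses a gap between exons.
Cd3d probe: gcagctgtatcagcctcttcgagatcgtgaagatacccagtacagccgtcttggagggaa
Cd4 second probe: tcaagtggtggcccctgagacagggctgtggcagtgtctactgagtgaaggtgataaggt
Cd8a second probe: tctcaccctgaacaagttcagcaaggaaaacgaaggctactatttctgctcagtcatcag
Over the 29 arrays the second probe correlated with the first at 0.25 for Cd4, 0.59 for Cd8a and 0.58 for Tcf7.

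Promoter windows from RefSeq on GRCm38.p6, the 250 bases before a transcript start, were at hand for 7 of the 10 genes in 9 windows. Those of Cd3d (chr9:44981536-44981785, plus strand) and Lck (chr4:129558373-129558622, minus strand, 1 of 2 Lck starts) are shown because these genes had the highest correlation of any pair, as given below. Capitals mark AGGAAGT, the core read by ETS family factors, or its complement ACTTCCT on the other strand.
Cd3d promoter: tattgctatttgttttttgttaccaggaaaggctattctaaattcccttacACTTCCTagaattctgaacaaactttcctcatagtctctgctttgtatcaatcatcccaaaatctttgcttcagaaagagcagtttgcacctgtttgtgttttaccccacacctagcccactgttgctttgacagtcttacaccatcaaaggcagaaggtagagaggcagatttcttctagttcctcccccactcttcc
Lck promoter: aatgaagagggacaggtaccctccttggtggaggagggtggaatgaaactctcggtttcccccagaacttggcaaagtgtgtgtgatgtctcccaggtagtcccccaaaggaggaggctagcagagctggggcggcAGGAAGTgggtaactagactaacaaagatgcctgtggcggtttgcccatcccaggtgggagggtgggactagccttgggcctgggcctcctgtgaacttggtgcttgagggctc
The motif was chosen after these sequences were seen. It lay in 5 of the 9 windows, those of Cd3d, Cd3e, Il7r and both Lck starts, and in 7.69% of all 32851 windows of this length. A match describes the letters only.

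No T cell gene passed the test between oleic acid and saline. Averaged over the 6 times, the difference ranged from -0.17 for Cd3e to 0.24 for Cd8a, and all 10 of the 95% intervals lay between -0.42 and 0.55. In the limma fit 0 of the 10 genes passed an adjusted p of 0.05, against 0% of all features, and 0 had an unadjusted p under 0.05, against 11.8% of all features. The members' median was 0.04 and that of all features -0.05, with 6 of 10 and 38.8% above 0. Centring arrays on their median instead raised all features by 0.10 and the members' median to 0.15.

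**Figure D1:**
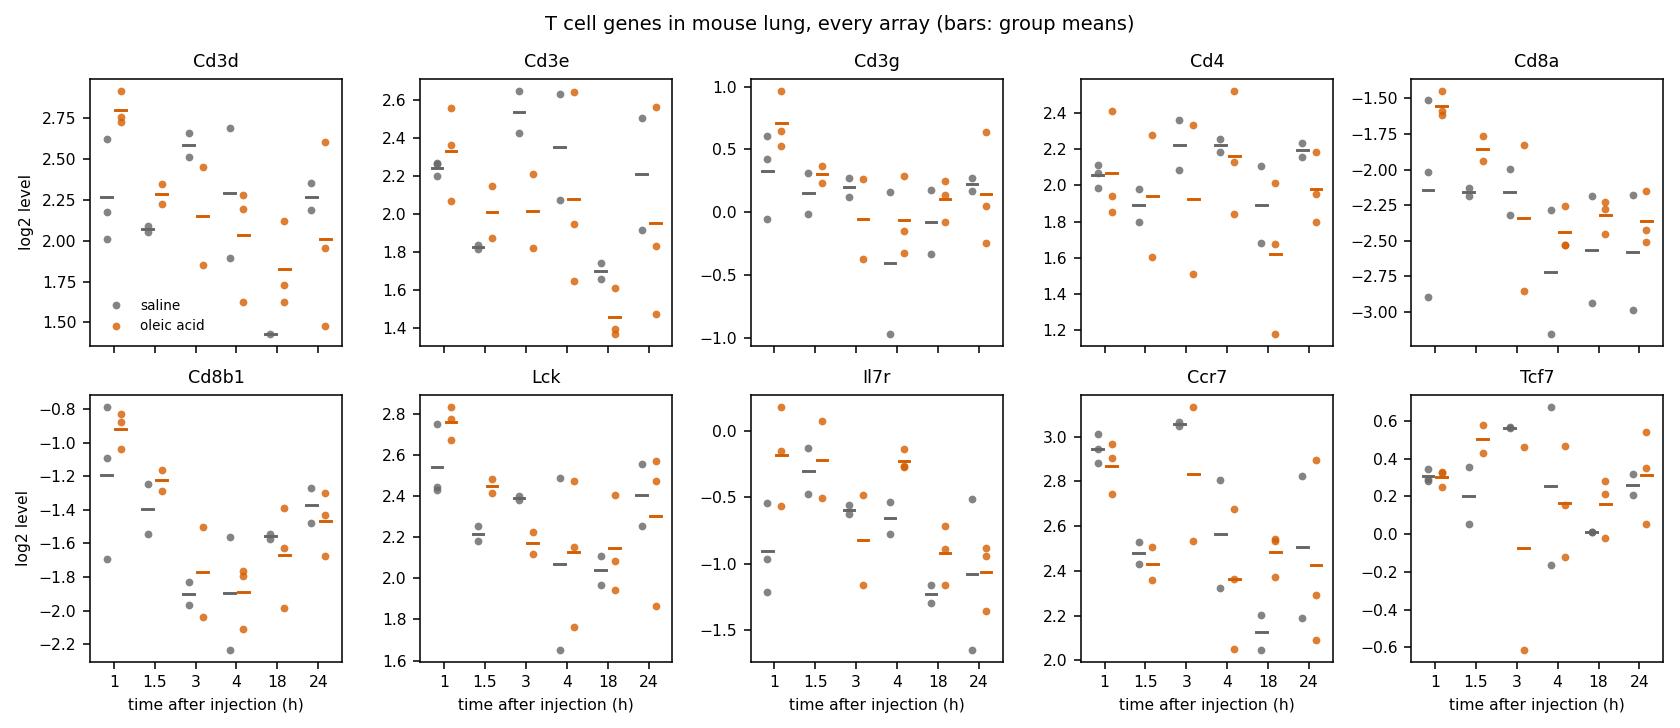
Log2 level of each T cell gene (vertical axis, log2 of signal relative to the array's 75th percentile, scaled separately in each panel) against time after injection in hours, in equal steps. Points are mice, grey for saline and orange for oleic acid, and bars are group means. The 2 treatments overlap for most genes at most times, and Cd8a, Cd8b1 and Lck are high at 1 h after oleic acid.

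The CD3 chains, which link the receptor to its signal, showed small differences of unlike sign. Cd3d, the delta chain, ranged from 1.43 to 2.69 under saline (12 arrays, median 2.18) and from 1.48 to 2.92 under oleic acid (16 arrays, median 2.21). The treatments covered nearly the same range, and the mean difference over 6 times was 0.03 (95% interval -0.24 to 0.31, adjusted p = 0.93). Cd3e, the epsilon chain, ranged from 1.66 to 2.65 under saline and from 1.37 to 2.64 under oleic acid, with medians of 2.20 and 1.91. Its mean difference was -0.17 (-0.42 to 0.08, adjusted p = 0.543). Cd3g, the gamma chain, ranged from -0.97 to 0.60 under saline and from -0.37 to 0.97 under oleic acid, and differed by 0.12 (-0.15 to 0.39, adjusted p = 0.686). For Cd3g the lowest value was that of saline 4 h replicate 1, and the group's other mouse stood at 0.16.

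No coreceptor passed the test between treatments either. Cd4, which marks helper cells, ranged from 1.68 to 2.36 under saline and from 1.18 to 2.52 under oleic acid, with a mean difference of -0.13 (-0.37 to 0.11, adjusted p = 0.627). Cd8a, the alpha chain of the cytotoxic cells' coreceptor, ranged from -3.15 to -1.51 under saline and from -2.85 to -1.45 under oleic acid. Its difference of 0.24 (-0.07 to 0.55, adjusted p = 0.485) was the highest of the 10 and became 0.39 with the second probes and 0.02 with normexp background correction. Cd8b1, the beta chain, ranged from -2.23 to -0.79 and from -2.11 to -0.83, and differed by 0.06 (-0.15 to 0.28, adjusted p = 0.808). The chains of CD8 thus had differences whose intervals both included 0.

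Lck, the kinase that starts the receptor's signal, ranged from 1.65 to 2.75 under saline and from 1.76 to 2.83 under oleic acid, with a mean difference of 0.05 (-0.16 to 0.26, adjusted p = 0.847). Il7r, the receptor chain through which interleukin 7 keeps resting T cells alive, had the smallest p of the 10, with 0.22 (-0.04 to 0.48, unadjusted p = 0.0898, adjusted p = 0.46). Ccr7, the chemokine receptor that guides naive cells into lymph nodes, differed by -0.05 (-0.25 to 0.16, adjusted p = 0.855). Tcf7, a transcription factor of naive and memory precursor cells, differed by -0.04 (-0.26 to 0.18, adjusted p = 0.889). Each of these 4 differences was smaller than the range of the gene within either treatment.

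**Figure D2:**
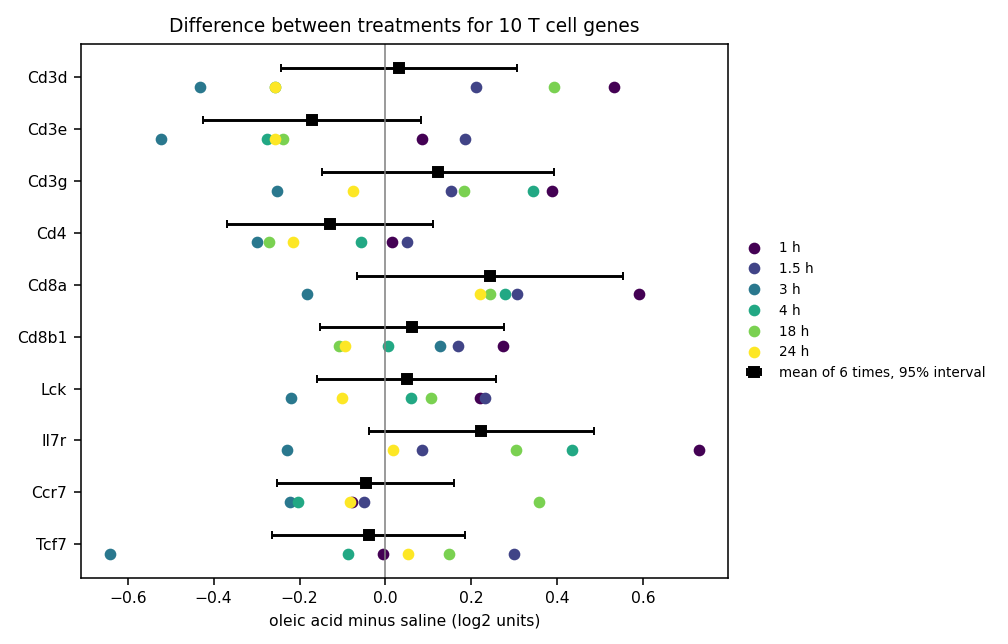
Oleic acid minus saline in log2 units for each T cell gene. Squares are means over 6 times with 95% intervals from limma, circles are the differences at single times; every interval includes 0, and the single times fall on both sides of 0 for each gene.

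At 1 h the T cell genes stood higher after oleic acid in 8 of 10 cases, with a median difference of 0.25 against 0.04 for all features. By limma 0 of 10 genes passed (all features 0%), and 1, Il7r, had an unadjusted p under 0.05 (4.04% of all features). Il7r stood at -0.15, -0.56 and 0.18 on the oleic acid arrays and at -1.22, -0.97 and -0.54 on the saline arrays. Only the lowest oleic acid mouse overlapped the highest saline mouse, and the difference was 0.73 (0.17 to 1.29, unadjusted p = 0.0139, adjusted p = 1.00). Cd3d was the 1 gene that was higher without overlap (3.07% of features), at 2.76, 2.92 and 2.73 against 2.01, 2.17 and 2.62. Cd8a stood at -1.59, -1.45 and -1.62 against -2.02, -2.90 and -1.51. In each of Cd3d, Cd8a, Cd8b1, Lck and Il7r the highest saline mouse was replicate 3, whose Dbp matched the oleic acid mice. With the 3 arrays of divergent Dbp left out the median of the 10 genes at 1 h was 0.01, Il7r differed by 0.36 and Cd8a by -0.04. Of 8 red cell genes measured at 1 h 0 passed and 0 were above 0, with a median of -1.09, where 56.9% of all features lay above 0, and their part in the result was not tested.

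At 1.5 h 9 of 10 genes lay above 0, against 44.0% of all features. Their median was 0.18, against -0.03 for all features, and 0 passed (all features 0.0034%). Cd3d, Cd3e, Cd8a, Lck and Tcf7 were higher without overlap, 5 of 10 against 10.9% of features in that direction, but each group held 2 mice and 0 of the 10 had an unadjusted p under 0.05 (1.63% of features). Lck stood at 2.41 and 2.48 after oleic acid and at 2.25 and 2.18 after saline. The largest difference was 0.31 for Cd8a (-0.51 to 1.12, adjusted p = 1.00).

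At 3 h the sign was opposite. Of the 10 genes 9 lay below 0, where 48.9% of all features lay above 0. Their median was -0.24, against -0.01 for all features. Of them 4 (Cd3d, Cd3e, Lck and Tcf7) were lower without overlap, against 18% of features, and 0 were higher without overlap (17.4%). By limma 0 passed (all features 0%), and 1, Tcf7, had an unadjusted p under 0.05 (6.36% of features). Tcf7 stood at 0.57 and 0.56 on the saline arrays and at 0.46 and -0.61 on oleic acid replicates 1 and 3. It differed by -0.64 (-1.23 to -0.05, unadjusted p = 0.0349, adjusted p = 0.753). The value rested on replicate 3, which lay on slide 3 while the other 3 h arrays lay on slide 2. Without oleic acid 3 h replicate 1 the difference was -1.18, and with slide as a block it was -0.10. The members' median went to -0.02 with that block and to -0.80 with all 31 arrays.

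At 4 h 5 of 10 genes lay above 0, against 40.5% of all features. The median was -0.03, against -0.08 for all features, and 0 passed (all features 0.0034%), with 0 unadjusted p under 0.05 (7.41%). Il7r was higher without overlap (8.4% of features), at -0.14, -0.26 and -0.27 after oleic acid and -0.54 and -0.78 after saline, a difference of 0.43 (-0.20 to 1.06, adjusted p = 0.73). The saline mice of this group differed from each other: Lck stood at 1.65 on replicate 1 and 2.49 on replicate 2, and Cd3g at -0.97 and 0.16. Without replicate 1 the median of the 10 genes was -0.34, and without replicate 2 it was 0.32. Fkbp5, which glucocorticoids induce, stood at 4.37 on saline replicate 1, 1.89 on replicate 2 and 3.27 to 4.12 after oleic acid, and its part in the result was not tested.

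Late differences were as small. At 18 h 7 of 10 genes lay above 0 with a median of 0.17, against 45.2% and -0.03 for all features. At 24 h 3 of 10 lay above 0 with a median of -0.09, close to the 35.8% and -0.12 of all features. None passed at either time (all features 0.0238% and 0.0136%), and none had an unadjusted p under 0.05 (2.42% and 4.56%). At 18 h Ccr7 was higher without overlap, as was Cd3d, though against 1 measured saline mouse (5.23% of features), and Cd3e was lower (6.72%). Ccr7 stood at 2.54, 2.37 and 2.53 after oleic acid and at 2.20 and 2.05 after saline, a difference of 0.36 (-0.14 to 0.85, adjusted p = 1.00). At 24 h the median of the 10 genes was also -0.09 without the 3 arrays of divergent Dbp, and 0 genes were apart in either direction (6.17% higher and 15.2% lower among features). Oleic acid 24 h replicate 2 was the highest of its group for all of the genes but Cd8a and Il7r, for instance 2.60 for Cd3d against 1.48 and 1.95. Averaged over 1 to 4 h, 0 passed (all features 0.0034%), 0 had an unadjusted p under 0.05 (7.56%) and the differences ran from -0.14 for Ccr7 to 0.25 for Il7r. Averaged over 18 and 24 h, 0 passed (all features 0.017%), 0 had an unadjusted p under 0.05 (3.16%) and they ran from -0.25 for Cd3e to 0.23 for Cd8a. The late effect minus the early one ran from -0.25 for Cd8b1 to 0.28 for Ccr7, and again 0 passed (all features 0%) or had an unadjusted p under 0.05 (1.47%).

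Over the hours the highest and lowest group means of a gene lay 0.33 (Cd4) to 1.15 (Cd3d) apart after saline, and 0.51 (Ccr7) to 0.98 (Cd3d) after oleic acid, and no gene passed the test of a change over time. Of the 10 genes 6 (Cd3d, Cd3g, Cd8a, Cd8b1, Lck and Il7r) had their highest group mean in oleic acid 1 h and the other 4 in saline 3 h. Saline 18 h was the lowest group for Cd3d, Lck, Il7r and Ccr7. For every gene 0 of the 11 neighbouring pairs in the order of the 12 group means differed beyond their spread. Sorting puts the closest means side by side, so this count says nothing about groups further apart in the order. The highest group minus the lowest was 1.37 for Cd3d (0.57 to 2.17) and 0.60 for Cd4 (0.02 to 1.18). These intervals do not allow for having picked the extremes. For Cd3d the lowest group, saline 18 h, was 1 array at 1.43, since the other spot was marked as an outlier. The 1.15 and the 1.37 of Cd3d rested on that array.

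Over the 6 times after oleic acid 0 of 10 genes passed the F test of limma (all features 4.41%), while Cd3d, Cd8b1 and Il7r had an unadjusted p under 0.05 (19.2% of features). Cd8b1 came nearest, with group means 0.97 apart (unadjusted p = 0.00395, adjusted p = 0.0687). It stood at -0.88, -0.83 and -1.04 at 1 h and -1.16 and -1.29 at 1.5 h. It then stood at -1.50 and -2.04 at 3 h, -1.80, -2.11 and -1.77 at 4 h, -1.98, -1.39 and -1.62 at 18 h and -1.67, -1.30 and -1.43 at 24 h. Thus every mouse of 1 h lay above every mouse of the later times. Cd8b1 passed with slide as a random block (adjusted p = 0.0279), with array weights (0.00624) and among features above background on all 29 arrays (0.0416). It also passed, at up to 0.0483, without any 1 of oleic acid 3 h replicate 1, saline 1 h replicate 2 or 3, or saline 4 h replicate 1 or 2. The 1 h arrays all lay on slide 1, so this time and its slide cannot be told apart. Over 29 arrays Cd8b1 correlated with Fkbp5 at -0.58, and their shared part was not tested.

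Il7r came second after oleic acid, with group means 0.88 apart (unadjusted p = 0.00937, adjusted p = 0.11). It stood at -0.15, -0.56 and 0.18 at 1 h, at -0.14, -0.26 and -0.27 at 4 h, at -0.72, -1.16 and -0.89 at 18 h and at -1.36, -0.95 and -0.88 at 24 h. At 1.5 h it stood at -0.51 and 0.08 and at 3 h at -0.49 and -1.16. The mice of 18 and 24 h thus lay below those of 1, 1.5 and 4 h, on other slides, while 1 mouse of 3 h was as low. After saline Il7r was at -1.29 and -1.16 at 18 h, below every saline mouse of 1.5, 3 and 4 h, of which the lowest stood at -0.78. The saline mice of 1 h (-1.22, -0.97 and -0.54) and 24 h (-1.65 and -0.51) had ranges that overlapped that of 18 h. Cd3d differed by 0.98 between the highest and lowest oleic acid means (unadjusted p = 0.032, adjusted p = 0.207).

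After saline 0 of 10 genes passed over the 6 times (all features 4.28%), and Ccr7 had the 1 unadjusted p under 0.05 (22.8% of features). Ccr7 stood at 2.88, 3.01 and 2.94 at 1 h, 2.43 and 2.53 at 1.5 h, and 3.07 and 3.05 at 3 h. It stood at 2.33 and 2.81 at 4 h, 2.20 and 2.05 at 18 h, and 2.19 and 2.83 at 24 h. The means were 0.93 apart (unadjusted p = 0.0165, adjusted p = 0.129), high at 1 and 3 h and lower between them at 1.5 h. Without the 3 arrays of divergent Dbp, which leaves 1 saline mouse at 1 h, the adjusted p was 0.254, and the features that passed went from 1259 to 742. The oleic acid mice gave 2.51 and 2.36 at 1.5 h and 3.13 and 2.53 at 3 h. Both 3 h mice were again the higher ones, but the 2.53 only just, and that array lay on slide 3 while the others lay on slide 2. After oleic acid the group means of Ccr7 lay 0.51 apart, the least of the 10 genes. From 18 to 24 h after oleic acid 0 of the 10 genes passed (all features 0.0102%), 0 had an unadjusted p under 0.05 (2.18%), and 0 were apart in either direction (4.46% higher and 2.98% lower among features).

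The comparison of saline 18 h with saline 4 h lay on 1 slide, with 2 mice each. Of all features 5.39% passed there and 22.3% had an unadjusted p under 0.05; of the 10 T cell genes 0 passed and 1, Cd3d, had such a p. The members' median was -0.29 against -0.04 for all features. Cd3d, Cd3e, Cd4, Il7r and Ccr7 were lower at 18 h without overlap, 5 of 10 against 29.2% of features, and 0 were higher (20%). The 75th percentile subtracted from each array stood at 279 and 272 at 4 h and at 341 and 537 at 18 h. Over the 29 arrays Cd3e and Cd4 correlated with it at -0.82 and -0.78. How much of the lower levels came from this scaling was not tested. Cd3d stood at 1.89 and 2.69 at 4 h and at 1.43 on the 1 array of 18 h that was measured. The difference was -0.86 (-1.71 to -0.01, adjusted p = 0.217), and it was -0.32 with the marked spot kept and -0.06 in the authors' deposited table of log2 values. Cd3e stood at 2.07 and 2.64 at 4 h and at 1.66 and 1.74 at 18 h, a difference of -0.66 (-1.33 to 0.01, adjusted p = 0.234). Il7r stood at -0.54 and -0.78 and then at -1.29 and -1.16, a difference of -0.57 (-1.26 to 0.12, adjusted p = 0.322). The CD8 chains and Cd3g gave positive differences, 0.34 for Cd8b1, 0.32 for Cd3g and 0.15 for Cd8a, with overlapping mice.

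The saline 4 h mice decided much of this comparison. Without saline 4 h replicate 2 the median of the 10 genes was -0.01. Without that mouse Cd3g differed by 0.89, and without replicate 1 by -0.24. Centring arrays on their median moved all features by -0.47 and the members' median to -0.75, which left the members 0.25 below all features, as before. The count of features that passed fell from 1585 to 42 with that centring, and to 24 with all 31 arrays; it was 331 without saline 18 h replicate 2, 702 without saline 4 h replicate 1 and 773 without saline 4 h replicate 2.

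**Figure D3:**
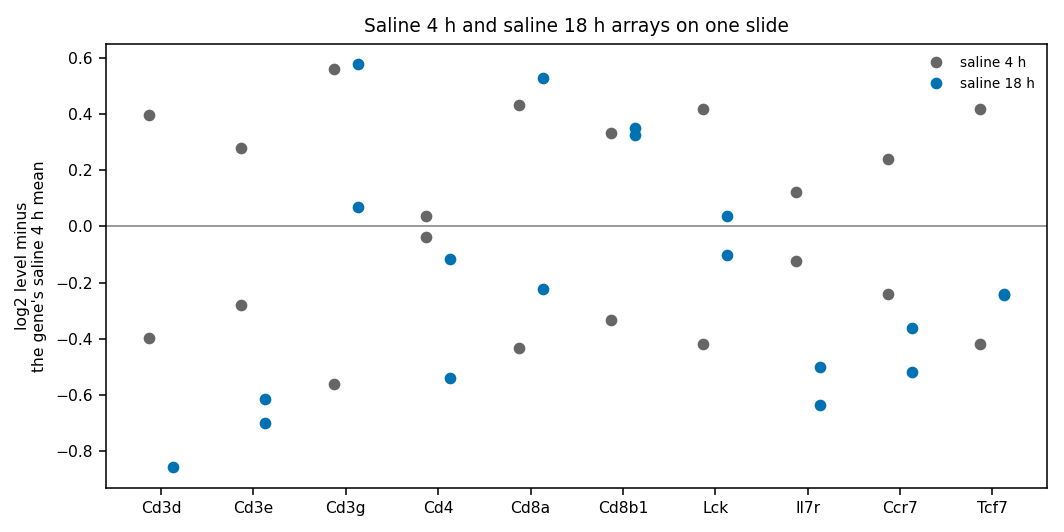
Log2 level of each T cell gene on the saline arrays of 4 h (grey) and 18 h (blue), minus the gene's mean at 4 h (vertical axis, log2 units). Points are mice; Cd3d has 1 measured mouse at 18 h, and Cd3d, Cd3e, Cd4, Il7r and Ccr7 lie below both 4 h mice at 18 h.

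Other genes of the T cell programme were taken from lists. Of 26 genes of the receptor complex and its signalling 21 were measured. Between treatments, over 6 times, 0 passed (all features 0%), and 1 had an unadjusted p under 0.05 (11.8% of all features). This was Prkcq, a kinase downstream of the receptor, which differed by 0.25 (unadjusted p = 0.0434). Lcp2, an adaptor that T cells share with platelets and myeloid cells, changed over time after saline (means 1.96 apart, adjusted p = 0.0448). Sit1, an inhibitory adaptor, changed after oleic acid (1.14 apart, adjusted p = 0.0455). Each was the 1 call among the 21 genes, where 4.28% of all features passed after saline and 4.41% after oleic acid. Both calls were lost in 29 of the alternative settings, of 41 and 43.

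Of 14 genes of naive cells and their homing 0 passed between treatments over 6 times (all features 0%). Those with an unadjusted p under 0.05, 5 of 14 against 11.8% of all features, lay in both directions. S1pr1, the receptor that lets cells leave lymph nodes, differed by -0.47 and its activator Klf2 by -0.32, both also expressed by endothelium. Ccr9, a gut homing receptor, differed by 0.31, and Dapl1, a gene of naive cells, by 0.27. Over the 6 times after oleic acid 3 of the 14, Klf2, Ccr9 and Dapl1, changed, where 4.41% of all features passed. Dapl1 lay between 0.47 and 0.97 at 1 h and between -1.02 and -0.64 at 4 h (F test of limma, means 1.59 apart, adjusted p = 0.00873). The 1 h arrays lay on slide 1 and the 4 h arrays on slide 3, so time and slide cannot be told apart here. The share of features without overlap between these groups was not counted. The call of Dapl1 was lost in 2 of 43 settings, those of Klf2 and Ccr9 in 21 and 31.

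From saline 4 h to 18 h Lef1, a transcription factor that works beside Tcf7, was the 1 of these 14 genes that passed, against 5.39% of all features. It lay at 2.12 to 2.67 at 4 h and at 1.31 to 1.41 at 18 h, and fell by 1.04 on the log2 scale (adjusted p = 0.0322). Tcf7 itself differed by -0.24 (-0.83 to 0.35, adjusted p = 0.66). Of 15 measured differentiation genes 1 passed, Ccr6, a chemokine receptor of Th17 cells that B cells express too, which rose by 1.18 (adjusted p = 0.0355). Of 14 measured ligands and cytokines 1 passed, Ccl19, the ligand of Ccr7, which fell by 0.93 on the log2 scale (adjusted p = 0.0385). Each of these 3 calls was lost in 11 of 44 settings. Gata3, a regulator of Th2 cells, and Ccr6 changed over time after oleic acid (1.22 apart, adjusted p = 0.0463, and 1.28 apart, adjusted p = 0.026), and Ccr6 after saline (1.41 apart, adjusted p = 0.0442). They were 2 of the 15 genes after oleic acid and 1 of 15 after saline, where 4.41% and 4.28% of all features passed. These calls were lost in 30, 6 and 27 of 43 settings.

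Other marker lists were set beside the T cell genes, and they did not all move the same way. For each array the levels of a list, each centred on its own mean, were averaged. After oleic acid the 15 B cell markers gave 0.34 to 0.53 at 1 h and -0.78 to -0.55 at 4 h. The T cell genes gave 0.35 to 0.46 and -0.25 to 0.03. These 1 h arrays lay on slide 1 and the 4 h arrays on slide 3, so time and slide cannot be told apart. From saline 4 h to 18 h 14 of 15 B cell markers lay above 0 (47.6% of all features), with a median of 0.90. Of them 3 passed, Ms4a1, Cr2 and Bank1, of the B cell surface and its signalling, where 5.39% of all features passed. They rose by 1.38, 1.60 and 1.32. The 10 T cell genes had a median of -0.29 in that comparison. The 14 natural killer and innate lymphoid markers had a median of 0.13. Of them 1 passed, Xcl1, higher by 2.17, a call lost in 25 of 43 settings. The neutrophil markers had a median of -1.11, with 2 of the 14 measured above 0, and Retnlg fell by 1.84 on the log2 scale. The dendritic list had a median of -0.49 with Cd209a higher by 0.92, the lymph node list a median of 0.54, the red cell list -0.71, the lung list -0.43 and the thymus list -0.05. Over the 6 times after oleic acid, where 4.41% of all features passed, Pax5, Fcer2a, Cr2 and Bank1 changed among the B cell markers. Klre1, Rora and Xcl1 changed among those of natural killer and innate lymphoid cells, and Cd209a and Ccr2 among the dendritic ones. After saline Ms4a1, Cr2, Bank1, Klre1, Cd209a and, of the lung list, Hopx changed, where 4.28% of all features passed. Of these calls over time, Ccr2 was lost in 33, Fcer2a in 21, Xcl1 in 12 and Pax5 in 11 of the settings after oleic acid. After saline Klre1 was lost in 28 and Hopx in 18. The other calls over time were lost in 9 or fewer. What these shifts contribute to the T cell values was not tested.

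**Figure D4:**
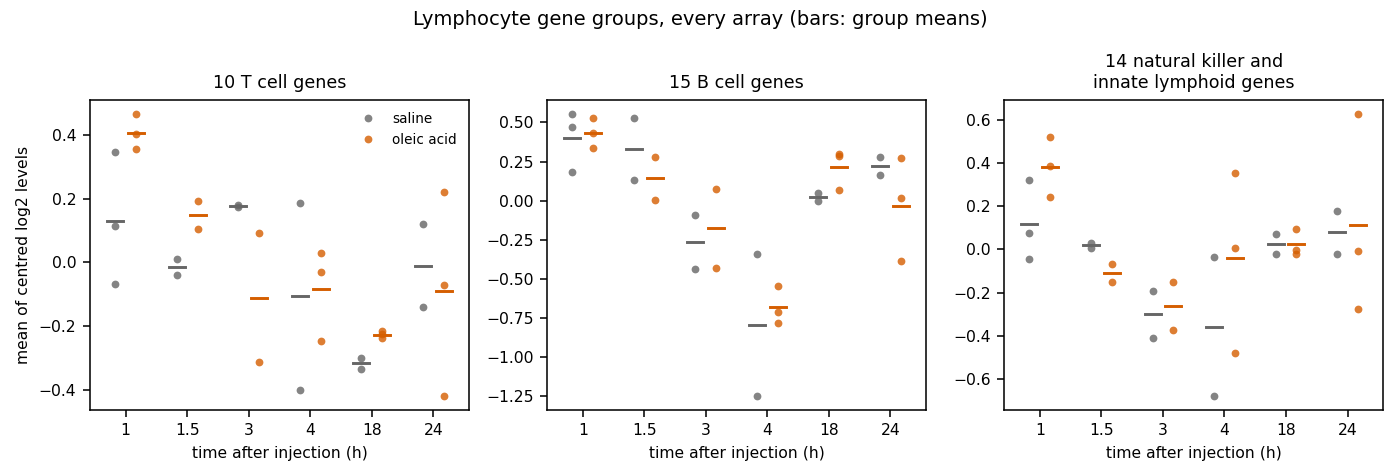
Mean of centred log2 levels (vertical axis) on every array for the 10 T cell genes, 15 B cell genes and 14 natural killer and innate lymphoid genes, against time after injection in hours. Points are mice and bars group means; the B cell genes are low at 4 h under both treatments, and the T cell genes are lowest as a group in saline 18 h.

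Most of the T cell genes varied together over the arrays, with Cd4, Il7r and Cd3e least like the rest. Over the 29 arrays, which share slides and times, 40 of the 45 pairs correlated above 0, with a median of 0.43, and 37 did so after group means were subtracted. The share above 0 among pairs of other features was not counted. Cd3d and Lck had the highest value, 0.82, followed by Cd3g with Cd8a at 0.79. The CD8 chains correlated at 0.74. Cd4 correlated with the mean of the other nine at 0.13, Il7r at 0.36 and Cd3e at 0.51, while the other genes lay between 0.56 and 0.87. After group means were subtracted Cd4 stood at -0.09, Il7r at 0.20 and Cd3e at 0.36, and the other genes between 0.59 and 0.86. Without Cd4 all 36 pairs lay above 0 before group means were subtracted. After that step Cd3e correlated with Il7r at -0.33 and with Cd8a at -0.06.

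Cd3e and Cd4 also varied with measures outside the T cell genes. They correlated with each other at 0.72 and with Sftpc, a gene of the lung epithelium, at 0.82 and 0.80. After group means were subtracted the correlations with Sftpc were still 0.74 and 0.75. Sftpc was not the gene most like either of them. Cd3e correlated with Il12rb2 at 0.92, Clpsl2 at 0.91 and Hipk4 at 0.90. Cd4 correlated with Gm12216 at 0.93, Pacsin1 at 0.92 and Syp at 0.92. What Cd3e and Cd4 share with these genes was not tested. The signal of Cd3e and Cd4 before scaling hardly varied. The ratio of highest to lowest array was 1.78 for Cd3e and 1.81 for Cd4, against 2.91 to 6.36 for the other 8 genes. Their levels correlated with the array's 75th percentile at -0.82 and -0.78, where the median feature had -0.13 and 3.47% of features lay below Cd4. These measures were chosen after the values were seen, and the part of the scaling in the values of Cd3e and Cd4 was not tested. The second Cd4 probe, near background, gave a positive difference of 0.52 between saline 18 h and 4 h where the first gave -0.33.

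**Figure D5:**
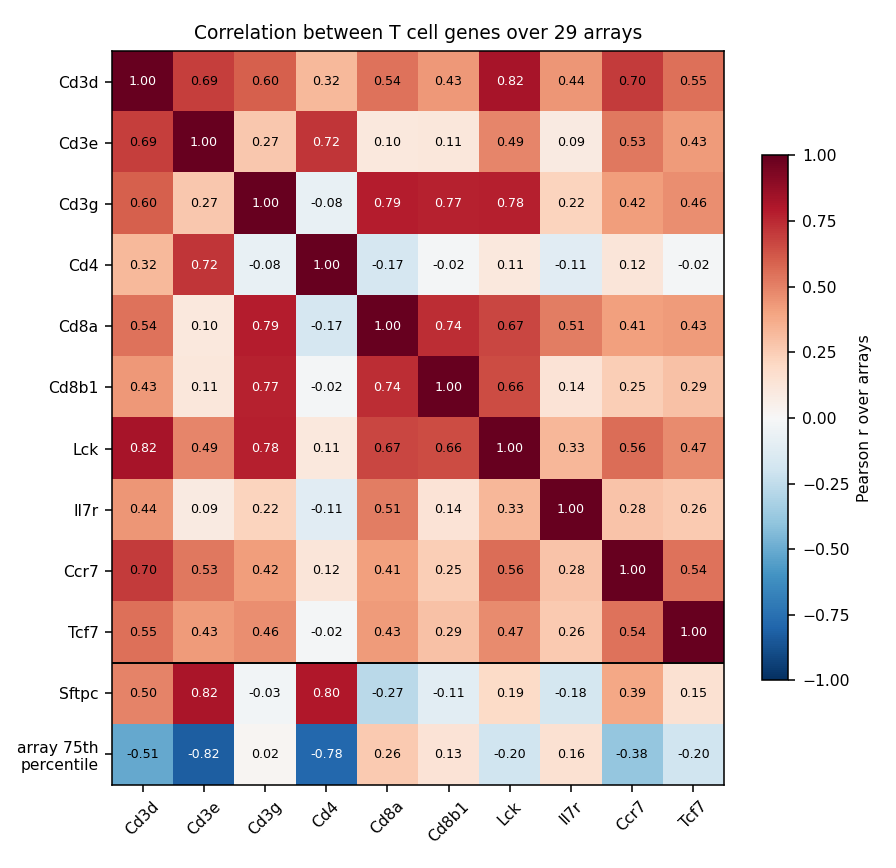
Pearson correlation over 29 arrays (28 with Cd3d) between the T cell genes, and of each gene with Sftpc and with the log2 of the array's 75th percentile (lower rows). Colour runs from blue (-1) through white to red (1); Cd3e and Cd4 share high values with Sftpc and low ones with the 75th percentile.

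Genes outside the 10 whose levels were most like their mean were named by Pearson correlation over 29 arrays. Cd5, an inhibitory coreceptor of T cells, came first at 0.91, followed by H2-Oa (0.87), Rab37 (0.84), Rhof (0.83), Fcho1 (0.83), Satb1 (0.83), Cd7 (0.82), Trpv2 (0.81), Shisa5 (0.81) and Thy1 (0.80). Satb1 organises chromatin in T cells, and Thy1 and Cd7 are surface molecules of T cells. After group means were subtracted the most alike included Cd5 (0.92), Cd28 (0.89), Cd83 (0.83) and Icos (0.83), of which Cd28 and Icos are costimulatory receptors.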

How the data were processed

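Per the file headers, the deposited scanner files hold the processed signal intensity of 1-colour Agilent 60-mer arrays (Feature Extraction 10.5.1.1), labelled from 200 ng of RNA per the labels. The authors' deposited series table holds log2 values of the same spots, with scale and centring not stated, and served as an alternative. Here log2 intensity minus the array's 75th percentile was used; outlier spots were dropped, a probe was kept where some group had it above background throughout, and the brightest kept probe stood for a gene. Names came from accessions matched to RefSeq or from the file's symbol. The 12 group means were fitted with limma 3.58.1 in R 4.3.3 on 29 arrays, over 29394 features, with Benjamini-Hochberg adjustment, for 14 comparisons; the fit was tested on simulated data. A group left with 1 array was assumed to vary like the others. The members and lists were chosen with earlier results of these data known. Named genes were all 10 members, and from 12 other lists those past an adjusted p of 0.05, or with an unadjusted p among the 4 smallest. There were 14 alternatives, with 2 more chosen after seeing the data (second probes, and 3 arrays left out). The number of arrays limits the precision. Some genes that this rule names are not reported here.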

Additional observations from a re-analysis of the deposited data

How the results depend on the processing

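Across 15 alternative settings and 29 fits that each left out 1 array, 0 of the 10 genes passed an adjusted p of 0.05 in 13 of the 14 comparisons. The exception was the change over 6 times after oleic acid, where 1 gene passed among features above background on all 29 arrays, 2 with slide as a random block and 4 with array weights. Leaving out 1 array gave 0 to 1 there. Slide as a fixed block could not be fitted at 18 h, to the means that include it or to the changes over 6 times. The labels tie no replicate number to a shared animal or batch. Same-numbered deviations correlated at 0.52 to 0.63 at 18 h, 0.20 to 0.29 at 4 h and 0.17 at 3 h, but at -0.77 to 0.25 at 1 h, -0.03 at 1.5 h and -0.13 to 0.16 at 24 h, so the numbers were not taken as pairs. With the replicate block 0 genes passed in any comparison, and 1498 features did between saline 18 h and 4 h. Counts of features that passed over time ranged from 23 to 2520 after saline and from 63 to 5828 after oleic acid, the highest with array weights. Without 1 array they ranged from 621 to 1851 and from 732 to 1476, lowest without saline 3 h replicate 2 and without oleic acid 4 h replicate 1. Normexp background correction left 15.3% of the features called between saline 18 h and 4 h higher at 18 h, and median centring 7.1%, against 29.5%; the cause was not tested. Median centring moved the median of all features by 0.29 at 1.5 h, -0.17 at 3 h, 0.31 at 18 h and 0.18 at 24 h, and the members' median stayed 0.20 above, 0.23 below, 0.19 above and 0.03 above it, as with the 75th percentile.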
